A study of Mus musculus with 2 samples.

Results

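The cathepsins are proteases of the lysosome, and 10 of their genes were followed here in mouse kidney: Ctss, Ctsk, Ctsb, Ctsc, Ctsd, Ctsh, Ctsl, Ctsz, Ctsa and Ctsw. They were taken by gene name from the spots that were not controls. The array names 9 of the 10 directly, and Ctsa, listed there under its older symbol Ppgb, was matched through its accession. Each had 1 probe, all 10 probes were well above background in all 4 channels, and all 10 were among the 18357 genes tested. Whole kidney RNA labelled Glis2 KO was compared with whole kidney RNA labelled Glis2 WT on 2 two-colour oligonucleotide arrays with the dyes swapped, so the mutant RNA was read in Cy3 on array 1 and in Cy5 on array 2. Glis2 is a Krüppel-like zinc finger transcription factor. The series description names kidneys of postnatal day 25 and 60, pools of 3 kidneys and 2 independent experiments. No label ties an age, a strain, a sex or an RNA pool to an array, and the nature of the mutant allele is not given in the sources used here. Whether the arrays carry separate kidneys is thus unknown, and p-values rest only on spread between 2 arrays, which may be technical. Limma takes most of each gene's variance from all genes together (prior degrees of freedom 6.58, residual 1), so p-values and SEs do not mainly reflect that gene's own spread. Below, mutant and wild type mean the RNA labelled KO and WT.

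The label was checked first on Glis2 itself. Its probe had log2 ratios (mutant over wild type) of 0.32 on array 1 and 0.16 on array 2 and was not called (adjusted p = 0.328 in limma), so it was not lower in the RNA labelled KO. Where the probe lies relative to the mutation is not given in the sources used here, so it checks neither the labels nor the allele, and directions are given by the labels alone. Per channel, 94.6% to 97.4% of the 21318 spots that were not controls were well above background. Of 13 kidney markers 12 passed the filter, all well above background in every channel, and Slc12a1 did not. Umod was saturated in 4 channels and Miox in 3, so neither could show a change. Limma called 0 of the 12 higher and 1 lower (1 and 5 at an unadjusted p under 0.05), beside 1.21% of all genes called lower. The called gene was Slc34a1, the phosphate transporter of the proximal tubule (-0.61), and its call was lost in 6 of 11 alternatives. The list median was -0.18, with 7 of the 12 below 0 on both arrays.

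Most cathepsins are cysteine proteases of the papain type. Ctsd is an aspartic protease and Ctsa a serine carboxypeptidase. They are made as inactive precursors, reach the lysosome largely through mannose 6-phosphate receptors, and are held in check outside it by cystatins and serpins. In the kidney the proximal tubule is rich in lysosomes that break down filtered protein, while macrophages and dendritic cells carry cathepsins that trim antigens for presentation. Ctss, Ctsc, Ctsw and Ctsz were grouped as leukocyte-enriched, Ctsk as a gene of osteoclasts and fibroblasts, and Ctsa, Ctsb, Ctsd, Ctsh and Ctsl as ubiquitous.

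The start regions of 6 members are shown to set the 3 members called higher beside 3 ubiquitous members that were not called. Each window is RefSeq sequence of the build GRCm38.p6, from 250 bases before to 50 bases after the annotated start, printed 5′ to 3′ on the strand of the gene. Capitals mark GAGGAA on either strand (TTCCTC when reversed), the core bound by the myeloid factor PU.1. They also mark CACGTG, the palindromic core bound by the lysosomal regulator TFEB, and an interferon-stimulated element, searched as a pair of GAAA with any 2 bases between. The 3 motifs were chosen with the results known and do not overlap in these windows.
Ctss, chr3:95526536-95526835, strand +: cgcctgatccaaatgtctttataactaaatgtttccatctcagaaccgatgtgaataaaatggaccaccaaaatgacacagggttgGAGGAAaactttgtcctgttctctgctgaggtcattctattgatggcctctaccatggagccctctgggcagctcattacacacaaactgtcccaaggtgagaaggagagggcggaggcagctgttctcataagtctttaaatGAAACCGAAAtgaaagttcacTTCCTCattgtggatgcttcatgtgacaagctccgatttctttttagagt
Ctsk, chr3:95498960-95499259, strand +: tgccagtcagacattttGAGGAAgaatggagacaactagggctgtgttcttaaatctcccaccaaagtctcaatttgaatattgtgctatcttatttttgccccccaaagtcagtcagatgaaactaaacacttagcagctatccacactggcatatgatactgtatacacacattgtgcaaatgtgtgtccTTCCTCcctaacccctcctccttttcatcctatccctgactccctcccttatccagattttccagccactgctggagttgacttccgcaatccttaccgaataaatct
Ctsc, chr7:88277835-88278134, strand +: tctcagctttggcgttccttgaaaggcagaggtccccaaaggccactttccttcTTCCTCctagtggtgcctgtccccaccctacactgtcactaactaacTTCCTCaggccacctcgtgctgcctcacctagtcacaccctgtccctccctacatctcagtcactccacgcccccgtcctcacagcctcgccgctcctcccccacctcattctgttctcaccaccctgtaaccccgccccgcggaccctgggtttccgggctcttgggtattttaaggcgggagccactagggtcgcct
Ctsd, chr7:142387778-142388077, strand -: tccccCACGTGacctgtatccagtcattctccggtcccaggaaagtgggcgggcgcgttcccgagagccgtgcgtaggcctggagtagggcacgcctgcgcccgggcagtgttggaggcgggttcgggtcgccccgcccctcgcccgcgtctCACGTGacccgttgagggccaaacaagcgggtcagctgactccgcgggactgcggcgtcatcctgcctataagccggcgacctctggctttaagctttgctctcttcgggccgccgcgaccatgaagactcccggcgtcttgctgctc
Ctsl, chr13:64370471-64370770, strand -: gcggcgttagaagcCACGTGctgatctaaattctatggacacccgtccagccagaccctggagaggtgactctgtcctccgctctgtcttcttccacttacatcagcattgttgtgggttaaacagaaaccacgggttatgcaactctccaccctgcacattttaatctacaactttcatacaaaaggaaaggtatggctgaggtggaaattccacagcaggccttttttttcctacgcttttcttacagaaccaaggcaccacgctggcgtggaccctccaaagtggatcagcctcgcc
Ctsa, chr2:164833523-164833822, strand +: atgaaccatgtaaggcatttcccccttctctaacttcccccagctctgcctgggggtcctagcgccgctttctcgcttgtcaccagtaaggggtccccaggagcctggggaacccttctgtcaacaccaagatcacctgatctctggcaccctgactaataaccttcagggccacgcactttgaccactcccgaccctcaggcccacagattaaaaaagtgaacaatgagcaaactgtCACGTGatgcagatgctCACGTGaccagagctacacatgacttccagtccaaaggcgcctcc
Windows were found for 7 of the 10 members, and the other members are Ctsb, Ctsh and Ctsw. GAGGAA was present at 2 places in each of the Ctss, Ctsk and Ctsc windows, which held no CACGTG. The latter was present at 2 places in the Ctsd window, at 1 in the Ctsl window and at 2 in the Ctsa window shown, which held no GAGGAA. The Ctsz window and the other Ctsa window held none of the 3 motifs. The interferon-stimulated element occurred only in the Ctss window among these, 21 bases before the start. Over the 32851 windows of this length, 28.3% held GAGGAA, 7.15% CACGTG and 3.44% the interferon-stimulated element. A match in these letters describes the window and does not show that a factor binds there.

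Of the 10 cathepsins, Ctss, Ctsk and Ctsc were higher in the mutant RNA and 0 were lower (limma, adjusted p under 0.05). The other 7 were not called. In whole kidney RNA, more cells of a type and more RNA per cell cannot be told apart. At an unadjusted p under 0.05, 5 members were higher and 0 lower, beside 10.1% and 6.31% of all genes, the shares against which each unadjusted count can be read. Among all genes tested, 5.01% were called, 3.79% higher and 1.21% lower. The median log2 ratio (mutant over wild type) of the 10 was 0.37, beside 0.01 for all genes, and 8 of the 10 were above 0 on both arrays, as were 31.9% of all genes. By size alone, 3 members were at least 1.5-fold higher on both arrays, as were 2.21% of all genes. The same 3 were higher with the scanner software's p under 0.01 on both arrays, as were 2.51% of all genes. That p is formed for 1 spot on 1 array, so it does not measure spread between arrays. It also comes from the same spots as the limma calls. The calls depend on how the ratios are formed. Limma called 0 of the 10 when given the scanner's log ratios or a background offset of 0, and 6 with a trended robust prior (Ctsd, Ctsz and Ctsh besides). Ctss, Ctsk and Ctsc were the highest members, in that order, in all 12 ways of processing. Several of these ways leave the ratio of a gene with 1 probe unchanged, so they could not alter the order.

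Ctss encodes the protease that, in antigen-presenting cells, makes the late cut of the invariant chain, leaving its CLIP fragment on MHC class II. Its spot read 3608 in the mutant and 754 in the wild type channel on array 1, and 3781 and 926 on array 2, as mean minus local background intensity in scanner units. Both mutant readings thus lay above both wild type readings whichever dye carried the mutant RNA. After normalization the log2 ratio was 2.10 on array 1 and 2.03 on array 2. The mean was 2.06 ± 0.11 (moderated SE, n = 2), or 4.18-fold, with an adjusted p of 0.000191 in limma. The offset of 50 shrinks ratios, so folds here are on that scale. Ctss ranked 12th of all genes tested by its rise. Its arrays differed by 0.06, a smaller gap than that of most genes, since 21.5% of genes had a smaller one.

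Ctsk, the collagen-degrading protease of osteoclasts that activated fibroblasts also make, was the next highest by ratio. Its spot read 297 in the mutant and 89.3 in the wild type on array 1, and 208 and 86.5 on array 2. Both mutant values were again above both wild type values. The log2 ratios were 1.09 and 1.38, averaging 1.24 ± 0.12 (moderated SE, n = 2), and limma's adjusted p was 0.00161. The gap between the arrays was wider than that of most genes, since 76.55% of genes had a smaller one. The offset of 50 added to both channels is not small beside these readings: the scanner software's ratios put Ctsk at 1.54 and 2.15, and the mean ran from 1.14 to 1.85 over the alternatives. The negative control spots of the wild type channel averaged 3.54 on array 1 (SD over spots 1.66) and 68.9 on array 2 (SD 58.2). The wild type reading of Ctsk on array 2 thus lay near the controls, and the size of its rise is uncertain.

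Ctsc, also called dipeptidyl peptidase I, activates the serine proteases of cytotoxic lymphocytes, neutrophils and mast cells. Its spot read 596 in the mutant and 257 in the wild type on array 1, and 622 and 297 on array 2. These groups did not overlap either, and neither did those of Ctsd, Ctsz and Ctsb, which were not called. The share of all genes without such overlap was not counted, so the lack of overlap cannot be weighed for any member. The log2 ratios were 0.92 and 1.10, the mean was 1.01 ± 0.11 (moderated SE, n = 2), or 2.02-fold, and the adjusted p was 0.00254 in limma.

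**Figure D1:**
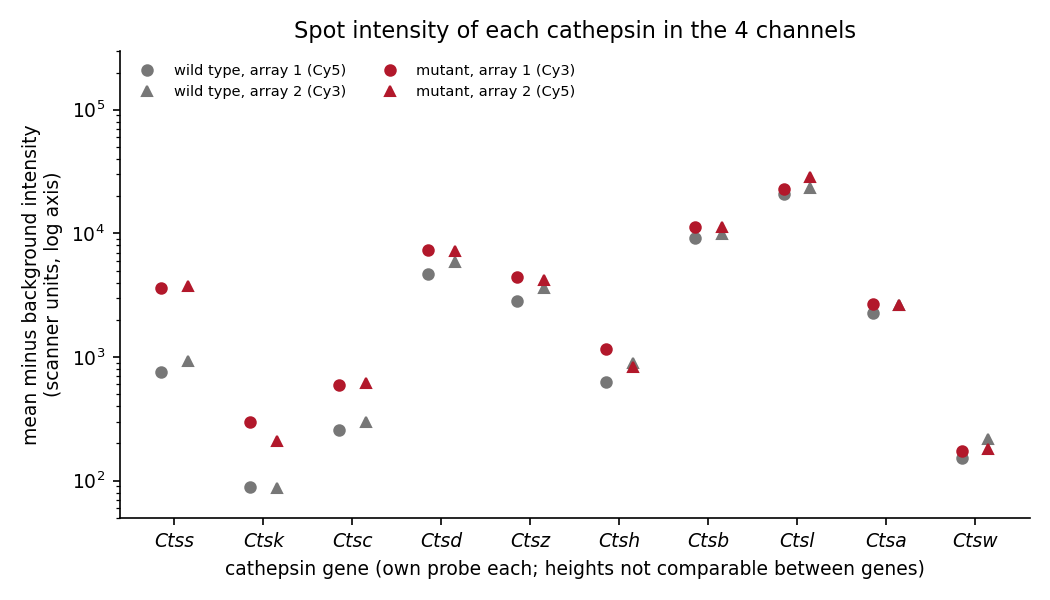
Mean minus local background intensity (scanner units, log axis) of each cathepsin probe in the mutant (red) and wild type (grey) channels of array 1 (circles) and array 2 (triangles). For the called Ctss, Ctsk and Ctsc and the uncalled Ctsd, Ctsz and Ctsb both mutant points lie above both wild type points. The share of all genes with such separation was not counted. At Ctsl, Ctsh, Ctsa and Ctsw the genotypes overlap. Heights are not comparable between genes.

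The remaining leukocyte-enriched members did not pass the test. Ctsz, a carboxypeptidase abundant in myeloid cells, read 4420 in the mutant and 2850 in the wild type on array 1, and 4197 and 3595 on array 2. Both of its mutant readings were the higher ones. Its log2 ratios were 0.56 and 0.26, averaging 0.41 ± 0.12 (moderated SE, n = 2), with a limma adjusted p of 0.118 and a 95% interval from 0.13 to 0.69. The interval is limma's, before adjustment for the number of genes. Ctsw, which is expressed by natural killer cells and cytotoxic T cells, read 174 and 151 on array 1 and 180 and 217 on array 2, in each case the mutant first. The Cy3 channel was the brighter one on both arrays, and after normalization the log2 ratios were -0.11 and 0.07, around a mean of -0.02 (95% interval -0.28 to 0.24). The median over the 4 leukocyte-enriched members was 0.71, and they ran from that value of Ctsw up to that of Ctss.

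Of the 5 ubiquitous members limma called 0 higher and 0 lower, with 1 higher at an unadjusted p under 0.05, and their median log2 ratio was 0.23. Ctsd, the main aspartic protease of lysosomes, had the highest ratio among them. Its spot read 7397 in the mutant and 4708 in the wild type on array 1, and 7246 and 5842 on array 2, so both mutant readings were the higher ones. Its log2 ratios were 0.60 and 0.34, averaging 0.47 ± 0.12 (moderated SE, n = 2), with a limma adjusted p of 0.0684 and a 95% interval from 0.20 to 0.74. That interval ends just below the 0.75 at which the interval of Ctsc begins, and the 2 genes were not tested against each other.

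Ctsh, an aminopeptidase, was the member on which the arrays differed most. Its spot read 1166 in the mutant and 631 in the wild type on array 1, but 827 and 901 on array 2. The log2 ratios were 0.72 and -0.05, and 98.5% of genes had a smaller gap between the arrays. The scanner software's own p-value for the Ctsh ratio was 1.04e-05 on array 1 and 0.774 on array 2. The mean of 0.33 (95% interval -0.07 to 0.74) therefore rests on array 1, and the adjusted p was 0.399 in limma.

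Ctsb, Ctsl and Ctsa lay closer to equality. Ctsb, which cuts both inside proteins and from their ends, read 11190 in the mutant and 9189 in the wild type on array 1, and 11320 and 9957 on array 2. Both mutant readings were the higher ones, with log2 ratios of 0.25 and 0.20 (mean 0.23, 95% interval -0.02 to 0.48). Ctsl, an endopeptidase of most cells, read 22700 and 20890 on array 1 and 28820 and 23220 on array 2, the mutant first. Its groups overlapped, with log2 ratios of 0.12 and 0.31 (mean 0.22, 95% interval -0.04 to 0.48). Ctsa protects the lysosomal enzymes Glb1 and Neu1 by forming a complex with them. It read 2705 and 2275 on array 1 and 2618 and 2641 on array 2, the mutant first, so its groups overlapped too. Its log2 ratios were 0.16 and 0.03, with a mean of 0.10 (95% interval -0.16 to 0.35), and its partners, named after their values were seen, stood at -0.22 for Glb1 and 0.04 for Neu1. Neither partner was called. All 3 intervals of Ctsb, Ctsl and Ctsa include 0 and lie wholly under the lower bound of Ctsc, though no member was tested against another.

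**Figure D2:**
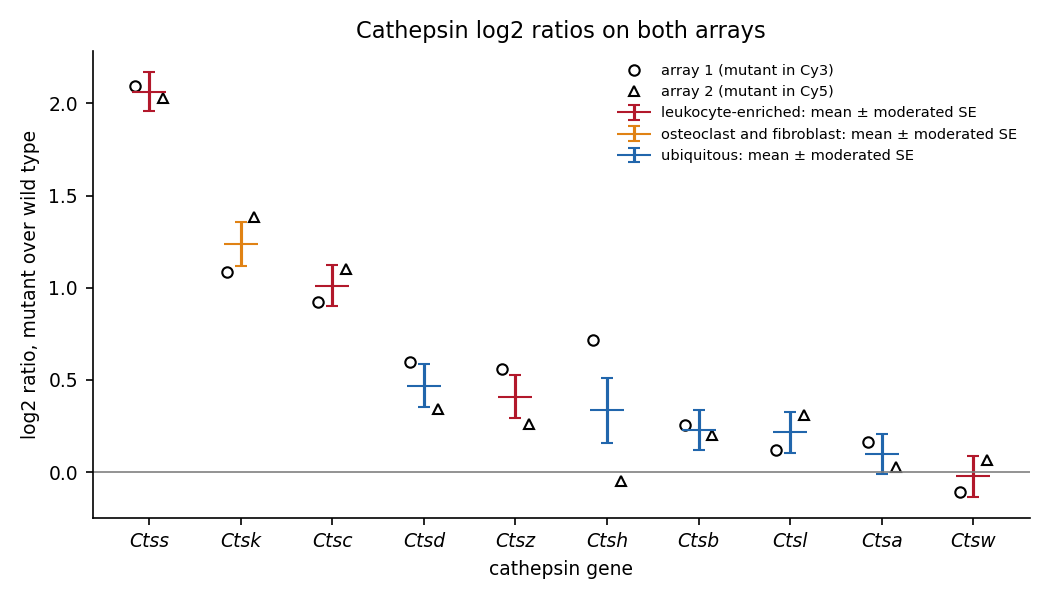
Log2 ratio (mutant over wild type) of each cathepsin on array 1 (circles) and array 2 (triangles), with the mean and limma's moderated SE (n = 2 arrays) coloured by class. Ctss stands at 2.06, Ctsk and Ctsc near 1, and the other members between -0.02 and 0.47.

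Ordered by mean log2 ratio, the members ran Ctss, Ctsk, Ctsc, Ctsd, Ctsz, Ctsh, Ctsb, Ctsl, Ctsa and Ctsw. The array values of neighbours failed to overlap at only 2 steps of this order. The lower array value of Ctss (2.03) was above the higher one of Ctsk (1.38), and the lower value of Ctsc (0.92) was above the higher one of Ctsd (0.60). Ctsk and Ctsc overlapped narrowly, at 1.09 and 1.10, and from Ctsd downward every pair of neighbours overlapped. The classes were set side by side and not tested against each other. Limma called 2 of 4 leukocyte-enriched members, the osteoclast and fibroblast gene, and 0 of 5 ubiquitous members higher, beside 3.79% of all genes. With the trended robust prior Ctsz and the ubiquitous Ctsd and Ctsh were called too, so this split depends on the setting. The classes also overlapped in ratio, with Ctsd above Ctsz and Ctsw.

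**Figure D3:**
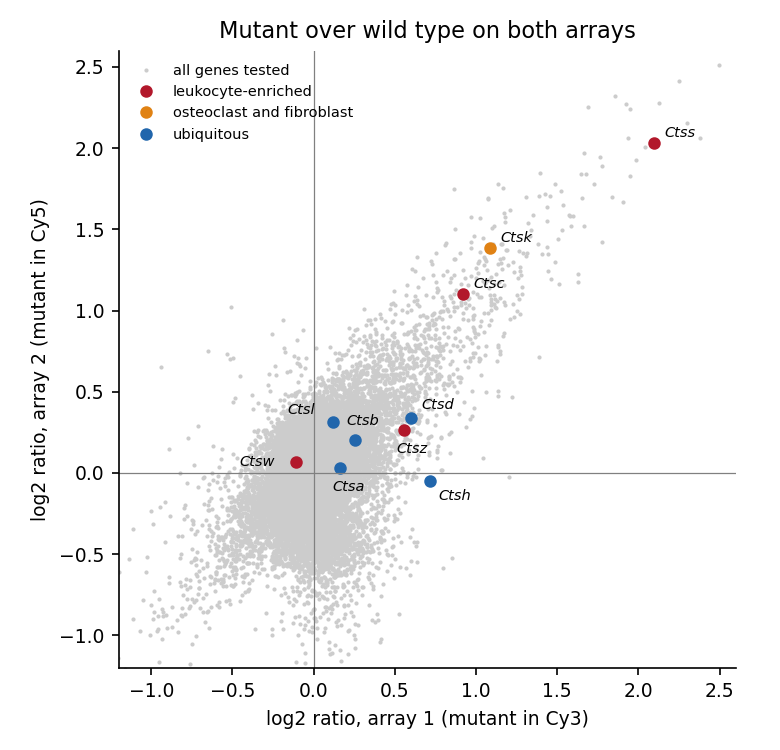
Log2 ratio (mutant over wild type) of all genes tested (grey) on array 1 (x) and array 2 (y), with the 10 cathepsins coloured by class. The axes leave out the genes with the largest changes. Ctss lies close to the diagonal, with Ctsk and Ctsc above it. Ctsh lies to the right with 0.72 on array 1 and -0.05 on array 2.

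The rest of the cathepsin genes gave no calls. Of 14 further genes, which include Lgmn, an asparaginyl protease gene also counted among the hydrolases here, and the placental cathepsins of rodents, 13 were tested and limma called 0 higher and 0 lower, with 0 higher and 2 lower at an unadjusted p under 0.05. Those 2, named after their values were seen, were Ctsf at -0.33 and Ctsm at -0.33. The fourteenth, Ctsj, was not well above background. The median of the 13 was -0.06 on array 1 and -0.23 on array 2. Many of these spots were dim, and on array 2 the 162 negative control spots were brighter in Cy3, which carried wild type RNA there (mean net signal 68.9, SD over spots 58.2), than in Cy5 (21.6, SD 20.5). The part of that imbalance in the lower ratios was not tested. The neutrophil protease gene Ctsg, which is a serine protease, had a log2 ratio of -0.16 and was not called. It is named after its value was seen.

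Among the inhibitors of cathepsins, limma called 3 of 13 higher and 0 lower (5 and 0 at an unadjusted p under 0.05), beside 3.79% of all genes called higher. Serpina3g, a mouse serpin that inhibits cysteine cathepsins, had log2 ratios of 1.18 and 0.86 and a mean of 1.02 ± 0.12 (moderated SE, n = 2). Cstb, the cytosolic inhibitor stefin B, reached 0.66 ± 0.11, and Cst3, the secreted cystatin C, reached 0.64 ± 0.11. Their adjusted p-values in limma were 0.00346, 0.0132 and 0.0191. The list median was -0.02, beside 0.01 for all genes. With the offset at 16 or with median centring only Serpina3g kept its call, and with plain background subtraction 0 of the 3 did, while Ctss, Ctsk and Ctsc kept theirs in these settings.

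Few other lysosomal genes were called. Of 30 lysosomal hydrolases 1 was called higher and 0 lower (2 and 1 at an unadjusted p under 0.05), with a median log2 ratio of 0.03. The called gene was Hexa, a subunit of hexosaminidase (0.74 ± 0.11, moderated SE, n = 2; adjusted p = 0.00795 in limma). Of 15 lysosomal membrane and lumenal proteins, 2 were called higher and 0 lower (4 and 1 unadjusted). These were Laptm5, a lysosomal protein of blood cells (0.66), and the cholesterol-binding Npc2 (0.60), and the list median was 0.10. Of 10 genes of lysosomal sorting and biogenesis 0 were called (3 higher and 1 lower unadjusted), with a median of 0.10. For these 3 lists the share called higher can be read against the 3.79% of all genes. The calls of Hexa, Laptm5 and Npc2 were each lost in 6 of 11 alternatives, offset 16, background subtraction and median centring among them.

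The MHC class II genes, whose products Ctss serves, were higher throughout the tested list. All 8 tested members were called higher and 0 lower, with a median log2 ratio of 1.80, beside 3.79% of all genes called higher. H2-Oa and Ifi30 each lost their call in 6 of 11 alternatives. With offset 16, background subtraction or median centring 6 of the 8 were called. H2-Ab1 (2.48), H2-Aa (2.22) and H2-Eb1 (2.09) encode class II chains, and Cd74 (2.20) encodes the invariant chain. Ctss, at 2.06, stood close to these. H2-Ob and Ciita were not well above background.

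Markers of other cells moved beside the cathepsins. For these lists the share called higher can be read against 3.79% of all genes. Of 18 macrophage and dendritic cell markers 12 were called higher and 0 lower (13 and 0 at an unadjusted p under 0.05), with a median log2 ratio of 0.92. The summed net signal of the 18 markers was 17489 and 17880 in the mutant channels against 6630 and 7830 in the wild type channels. C1qa alone read 7092 and 7852 in the mutant channels, so that sum leans on 1 bright probe. Lyz2 (2.50), C1qa (1.86), Tyrobp (1.63) and Aif1 (1.59) led. Lyz2 read 117.5 in the wild type on array 2, where the negative controls of that channel averaged 68.9 (SD over spots 58.2). The size of the Lyz2 rise is thus uncertain. Csf1r at 0.09, Cd68 at 0.18, Cx3cr1 at -0.09 and Itgam at -0.15, named after their values were seen, were not called. Of 9 fibroblast and pericyte markers 8 were called higher and 0 lower (9 and 0 unadjusted), and Dcn was left out for an outlier flag. The summed signal of the 9 was 13225 to 13847 in the mutant against 4013 to 4466 in the wild type. Col3a1 (1.97), Col1a2 (1.96), Sparc (1.75) and Lum (1.60) led that list. Among the adipocyte markers 7 of 8 were called higher and 0 lower (7 and 0 unadjusted), with Cfd (3.17), Car3 (2.33), Adipoq (2.23) and Cidec (2.10) leading. The summed signal of the 8 was 35740 to 35765 against 10016 to 11243. On array 1 Fabp4 (16340) and Cfd (11650) carried most of the mutant sum. The part of any of these cells in the rise of Ctss, Ctsk or Ctsc was not tested.

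Among lymphocyte markers the shares called higher were 8.33% (T and natural killer cell) and 14.3% (B and plasma cell), from 1 gene each, beside 3.79% of all genes. Of 12 T and natural killer cell markers 1, Klrd1 (0.62), was called higher and 0 lower (5 and 0 unadjusted). Their summed signal was 2935 to 3336 in the mutant and 2570 to 3119 in the wild type, and Gzma was not well above background. Between 55.4% and 65.9% of each sum came from Cd3e (-0.03) and Nkg7 (-0.01), named after their values were seen, so the sum says little of the dimmer probes. Of 7 B and plasma cell markers 1, Cd79b (0.66), was called higher and 0 lower (1 and 1 unadjusted). Their summed signal was 863 to 1276 in the mutant and 895 to 1190 in the wild type. Klrd1 and Cd79b lost their calls in 6 of 11 alternatives. Their wild type readings on array 2 (56 and 93.2) lay near the negative controls of that channel (mean 68.9, SD over spots 58.2). Limma called 0 of 7 neutrophil and mast cell markers (0 unadjusted), with S100a8, Ngp and Camp not well above background and a summed signal of 550 to 937 against 648 to 807. It also called 0 of 7 osteoclast markers (0 unadjusted), whose median was -0.04. Their summed signal was 3990 to 4376 in the mutant and 3401 to 4809 in the wild type. Acp5 read 1302 to 1768 over the 4 channels. Oscar read 467 and 444 on array 1, the mutant first, but 1509 and 1575 on array 2. Acp5 and Oscar are named after their values were seen, and the sum leans on few bright probes. Most tested markers of fibroblasts, macrophages and adipocytes were called higher beside Ctsk, while osteoclast markers were not. The part of any of these cells in the rise of Ctsk was not tested.

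**Figure D4:**
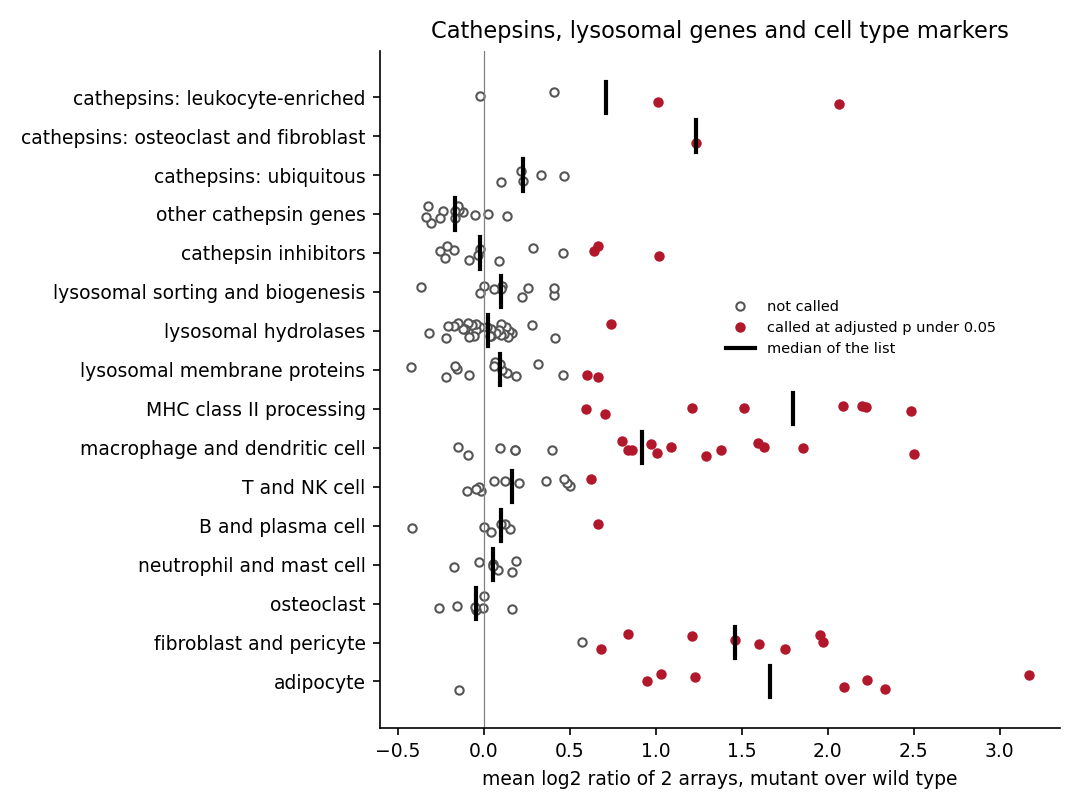
Mean log2 ratio (mutant over wild type, n = 2 arrays) of each tested gene, by list, with genes called by limma in red, uncalled genes open, and the list median as a black bar. The class II, macrophage, fibroblast and adipocyte lists have medians of 1.80, 0.92, 1.46 and 1.66, while the 3 lists of other lysosomal genes have medians between 0.03 and 0.10.

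**Figure D5:**
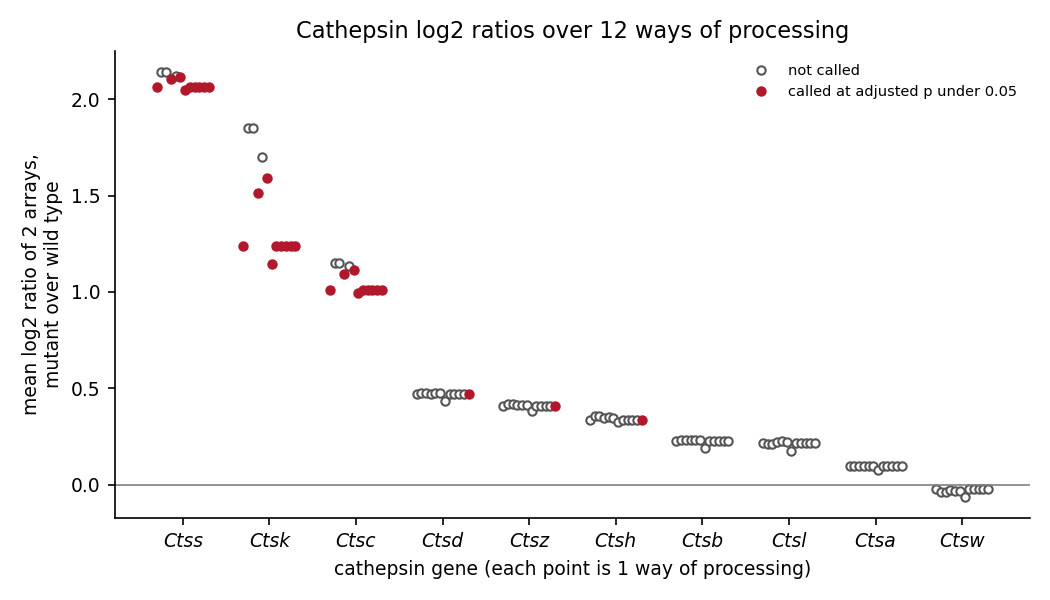
Mean log2 ratio (mutant over wild type) of each cathepsin under 12 ways of processing, with calls at an adjusted p under 0.05 in red and uncalled values open. Ctss stays between 2.05 and 2.14 and Ctsc between 0.99 and 1.15, while Ctsk runs from 1.14 to 1.85; the open points of these 3 genes are the settings in which limma called 0 genes.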

How the data were processed

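Kidney RNA was measured on 2 two-colour arrays. Per the labels, labelling began from 500 ng of total RNA, and 750 ng of cRNA in each dye was hybridised for 17 hours. Agilent Feature Extraction 8.1.1.1 gave the mean intensity of every spot and its median local background, per the file headers, and neither was normalized. Its log10 ratio of Cy5 over Cy3, and the p-value for it, followed the software's own background and dye corrections, per the file headers. The authors' deposited value table held those log10 ratios with the sign turned (largest difference 0).

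Background was corrected with normexp (offset 50) and each array normalized by loess in limma 3.58.1 (R 4.3.3), controls at weight 0. Ratios were turned to mutant over wild type. Controls were dropped, as were 88 flagged outlier spots. Spots were kept if well above background for mutant RNA on both arrays or for wild type RNA on both. The brightest probe stood for a gene. The mean log2 ratio was tested against 0 by lmFit and eBayes (residual degrees of freedom 1, prior 6.58), adjusted by Benjamini-Hochberg over 18357 genes. A dye term could not be fitted beside the mean. The fit was tested on simulated data, where ratios came out smaller than those put in. Names came from a RefSeq table (GRCm38.p6), and 2277 spots kept the file's name. Alternatives varied the ratio's source, offset, background, normalization, filter, probe rule and prior.

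The members, lists and motifs were chosen with earlier results of these data known. All 10 members are named, and from each other list up to 4 called genes of largest absolute ratio with 1 direction on both arrays; exceptions are marked. The number of arrays limits the precision.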

Additional observations from a re-analysis of the deposited data

How the results depend on the processing

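No sign of a cathepsin's mean ratio changed under the 11 alternatives in which it was tested. On 1 array alone 2 uncalled members changed sign: Ctsh was -0.05 and Ctsw 0.07 on array 2. The call of Ctss, Ctsk and Ctsc was kept in 8 of the 11 and lost in the other 3, with adjusted p up to 0.138, 0.144 and 0.144. The count of cathepsins called higher was 3 in the reported setting and 0 with the scanner software's log ratio, 0 with the deposited value table of the same ratios, and 0 with offset 0. In these 3 settings limma called 0 of all genes, with 2521, 2521 and 2543 at an unadjusted p under 0.05, and 5 cathepsins were higher at an unadjusted p under 0.05 in each. With a trended robust prior the count was 6, as Ctsd, Ctsz and Ctsh were added. Of the 88 genes on the other cathepsin, inhibitor, lysosomal and class II lists, 14 were called higher and 0 lower. The higher count became 0 with the scanner's log ratio, the value table or offset 0, 7 with offset 16 or median centring, 6 with plain background subtraction and 22 with the trended robust prior, which also called 3 lower. The cause of these shifts was not tested. Macrophage and dendritic cell calls fell from 12 to 7 with background subtraction, and T and natural killer cell calls went from 1 to 0 with offset 16, background subtraction or median centring, 2 when both channels had to be above background and 4 with the trended robust prior. Over all genes, 696 were called higher and 223 lower as reported, 302 and 56 with offset 16, 204 and 24 with background subtraction, 235 and 48 with median centring, and 1540 and 932 with the trended robust prior. By size on a single array, a count chosen after seeing the data, 3 to 5 cathepsins were at least 1.5-fold higher: 5 on array 1, where Ctsd and Ctsh joined, and 3 on array 2. No limma test exists for 1 array alone. The ratio within each array already pairs the genotypes, so no further replicate block could be added.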

Other observations

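In the RefSeq gene order of chromosome 3, Ctsk and Ctss are direct neighbours with 0 protein-coding genes between them. Both were higher in the mutant RNA, with mean log2 ratios of 1.24 and 2.06. On the Ctsk side Arnt stood at 0.09 and Setdb1 at 0.01, and on the Ctss side Hormad1 stood at 0.17, Golph3l at -0.04 and Ensa at 0.35. None of these 5 flanking genes was called by limma, with adjusted p from 0.204 to 0.975. Another flanking gene, 4930558C23Rik between Setdb1 and Arnt, was not on the array. The neighbours were looked at after the cathepsin values were seen.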
